A study of Mus musculus with 9 samples.

Results

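Cd5, Cd6, Cd2, Cd27, Cd28, Ctla4, Pdcd1, Btla and Cd96 encode receptors on the surface of T cells that raise or lower the response of the T cell receptor. Every probe set of the array whose single gene symbol is one of these 9 names was taken, which gave 10 probe sets of 45037, or 9 of 18193 named genes, with 2 for Cd28 and 1 for each other gene. Expression was measured by oligonucleotide array on RNA of 9 C57Bl/6 mice, 1 array each, all with the genotype R26NC/NC. The control group was sorted CD4+CD8+ double-positive (DP) thymocytes of 2 CD4Cre- mice aged 6 weeks. The pre-transformed group was the same sorted population from 3 CD4Cre+ mice of that age, in which the Cre recombinase, under Cd4 control, leads to an activated form of β-catenin, the effector of Wnt signalling. The tumour group was whole thymic tumours of 4 CD4Cre+ mice aged 28, 26, 23 and 21 weeks (tumours 1 to 4), and the Cre acts in every cell that has turned on Cd4. Sorted cells were over 98% DP, and a kit for small amounts amplified 0.1 µg of their RNA. Tumours were at least 95% DP, were not sorted, and were labelled from 2.5 µg RNA by another protocol, so that labelling, sorting and age cannot be told apart from transformation. The labels name each sample's mouse, so the spread below is between animals; precision is limited by how few arrays there were.

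A T cell needs a costimulatory signal beside that of its antigen receptor. CD28 and CD27 give such signals when they bind B7 proteins and CD70, and CD2 binds CD48 and strengthens adhesion to the partner cell. CTLA-4 competes with CD28 for B7 proteins, while PD-1 and BTLA recruit phosphatases that damp the signal. CD5 and CD6 are scavenger receptors with long cytoplasmic tails that tune the response, and thymocytes raise CD5 as they receive antigen receptor signals. CD96 binds the nectin-like protein CD155, the product of Pvr.

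Markers of DP cells were bright in every group except 1 of 15 in tumours, and the summed markers of several other cell types differed in tumours. The 15 DP genes summed to 42509 to 46548 in sorted cells; the tumours' sums were 18594 to 26861, with Cd4 at 1008 to 1725 and Cd8a at 2056 to 2946 but Ptcra, which encodes the pre-T cell receptor α chain, at 2.7 to 6.8. The 3′ to 5′ log2 ratio of β-actin, which varies with RNA integrity and labelling, averaged 0.81 over the 4 tumours (SD 0.28) against 0.26 over the 5 sorted arrays (SD 0.05), with p = 0.00794 by an exact permutation test, two-sided, the smallest that 126 splits allow. The same ratio of Gapdh averaged −0.31 and −0.20 (exact permutation test, two-sided, p = 0.317). B cell markers (11 genes) summed to 2066 to 5779 in tumours 1, 3 and 4 and to 277 in tumour 2, against 1813 to 3091 in sorted cells, where most of it was Ighm (1553 to 2779). Myeloid markers (18 genes) summed to 8985 to 9676 in tumours 1, 3 and 4 and to 209 in tumour 2, against 303 to 701 in sorted cells. Stroma and endothelium (13 genes) summed to 492 to 1844 in tumours and 177 to 249 in sorted cells, and erythroid markers (5 genes) to 469 to 973 and 52.4 to 95.8. Most of these tumour sums was 1 gene each, Igfbp7 (292.5 to 1545) and Hemgn (412 to 949), and whether it came from other cells or from the tumour cells was not tested. In RNA of whole tissue, fewer cells of a type and less RNA per cell cannot be told apart.

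Signals of 6 of the 9 genes were bright in sorted DP cells and those of Ctla4, Btla and Pdcd1 were dim. A group is called dim here where its geometric mean lies under the 65th percentile of its own arrays, which was 28.6 to 44.6 over the 9 arrays. In control and pre-transformed cells Cd5, Cd6, Cd2, Cd27, Cd28 and Cd96 had mean signals of 570 or more. Ctla4, Btla and Pdcd1 had means of 21.0 to 36.9 in these groups. Pdcd1 was dim in tumours as well. All 10 probe sets passed the filter on low signals, so that all 9 genes were tested.

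**Figure D1:**
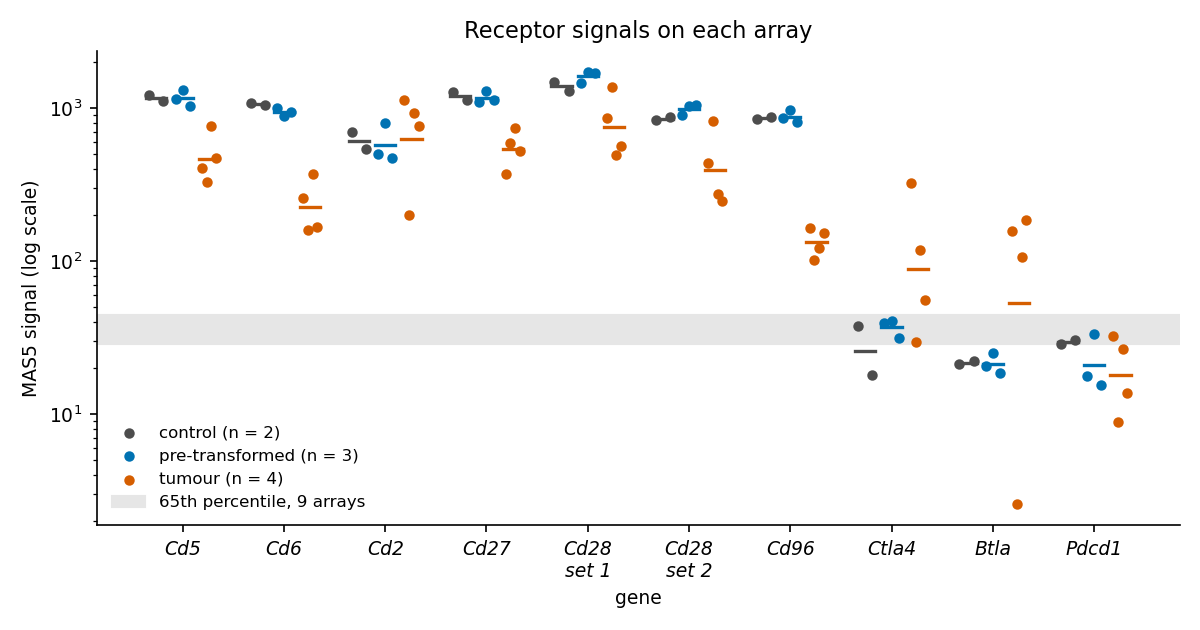
MAS5 signal (log scale) of the 10 probe sets on each of the 9 arrays, with a bar at each group's geometric mean and a grey band for the range of the arrays' 65th percentiles. For Cd96, Cd6, Cd5 and Cd27 every tumour array lies under every sorted array, while Btla runs from 2.6 to 186 over the tumours.

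The promoters of 2 genes that fell in tumours (Cd5, Cd27) and of 2 whose signals differed most among tumours (Ctla4, Btla) are shown because the study's active agent, β-catenin, acts on DNA through TCF/LEF factors. Windows were present for 6 of the 9 genes in the RefSeq table (GRCm38.p6), and the 250 bases before the start are printed 5′ to 3′ on the gene's strand. CTTTGAA and CTTTGAT, 2 forms of the TCF/LEF site, and the E-box CACGTG were searched on both strands. They were in none of the 6 windows, against 4.46%, 3.21% and 6.02% of 32851 windows of that length. No match says only that these letters are not in these bases. Other forms of the TCF/LEF site were not searched, among them CTTTGTT, which the Cd96 window, not printed here, holds. After that search CAGGTG, an E-box that E proteins bind, and GGAAGT, an ETS core, were added and are in capitals. CAGGTG was in Cd5 (at 2 places) and Ctla4 and in 17.2% of all windows. GGAAGT was in Cd5 and Btla and in 19.7% of all windows.
Cd5, chr19:10738975-10739224, minus strand: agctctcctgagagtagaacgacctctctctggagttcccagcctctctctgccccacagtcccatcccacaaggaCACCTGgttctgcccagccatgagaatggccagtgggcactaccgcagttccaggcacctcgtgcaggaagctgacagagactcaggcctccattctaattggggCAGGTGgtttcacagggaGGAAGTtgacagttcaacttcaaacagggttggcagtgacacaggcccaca
Cd27, chr6:125237028-125237277, minus strand: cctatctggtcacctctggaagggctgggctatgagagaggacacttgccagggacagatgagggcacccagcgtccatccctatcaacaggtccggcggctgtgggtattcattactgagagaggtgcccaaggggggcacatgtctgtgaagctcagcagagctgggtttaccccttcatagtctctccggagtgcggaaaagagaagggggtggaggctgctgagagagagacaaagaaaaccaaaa
Ctla4, chr1:60908775-60909024, plus strand: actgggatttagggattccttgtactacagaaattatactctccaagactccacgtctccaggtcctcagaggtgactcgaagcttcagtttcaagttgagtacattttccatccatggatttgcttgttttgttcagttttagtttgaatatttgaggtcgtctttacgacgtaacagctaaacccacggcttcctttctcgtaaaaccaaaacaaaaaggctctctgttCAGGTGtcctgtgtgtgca
Btla, chr16:45224087-45224336, plus strand: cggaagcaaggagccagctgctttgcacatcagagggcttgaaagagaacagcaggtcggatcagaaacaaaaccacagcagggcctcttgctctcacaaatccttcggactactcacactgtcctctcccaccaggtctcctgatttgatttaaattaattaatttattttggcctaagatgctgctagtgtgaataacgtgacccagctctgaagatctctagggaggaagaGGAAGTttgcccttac

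Pre-transformed and control DP cells were compared to ask whether active β-catenin alters these receptors before tumours form. No receptor passed the test: limma called 0 of 9 (Benjamini-Hochberg adjusted p under 0.05). At that threshold 1.63% of the 11644 genes tested were called, 1.11% higher and 0.524% lower, so 0 of 9 lies near the share of all genes. The narrowest limits were those of the bright genes. For Cd96 the difference on the log2 scale was 0.02 with a 95% interval from −0.23 to 0.27, for Cd5 it was 0.00 (−0.28 to 0.28) and for Cd27 −0.03 (−0.29 to 0.23). Cd28 had a mean of 1381 in controls against 1607 before transformation (log2 difference 0.22 ± 0.12 SE, adjusted p = 0.384), and Cd6 one of 1066 against 937 (−0.19 ± 0.10 SE, adjusted p = 0.377). Cd6 was the receptor whose arrays did not overlap between these groups, lower in all 3 pre-transformed arrays, as 15.6% of all genes were (36.3% did not overlap in either direction). The intervals of Ctla4 (−0.25 to 1.28) and Pdcd1 (−1.32 to 0.32) were wide, and no fold is given for Ctla4, Pdcd1 or Btla because both groups were dim. The median over the 9 genes was −0.03 on the log2 scale, beside 0.02 over all genes tested.

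Tumours and pre-transformed cells were compared to ask what differs once thymocytes of this genotype have transformed. Of the 9 receptors 5 fell (Cd96, Cd6, Cd5, Cd27 and Cd28) and 0 rose, where 54.9% of all genes tested were called, 31.0% lower and 23.9% higher. The same 5 were the receptors whose arrays did not overlap, all lower, where 57.0% of all genes did not overlap and 32.1% were lower in that way. Cd96 fell by the most, 6.59-fold, and Cd6 4.16-fold. Cd2, Ctla4, Btla and Pdcd1 did not pass. The median over the 9 genes was −1.09 on the log2 scale, beside −0.12 over all genes.

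**Figure D2:**
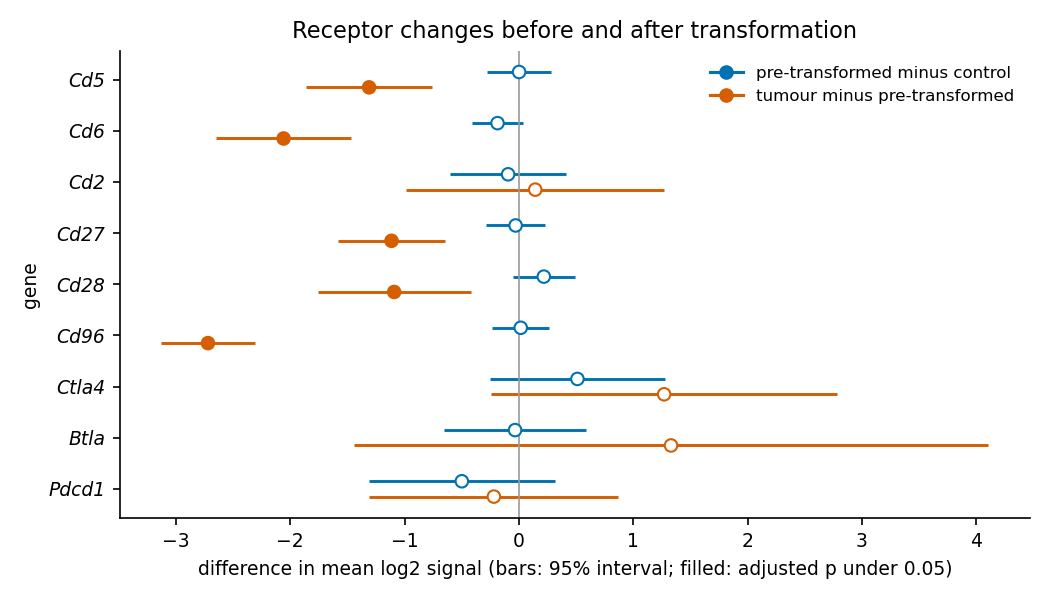
Difference in mean log2 signal of each receptor for pre-transformed minus control and for tumour minus pre-transformed, with 95% intervals from the limma fits (filled points have an adjusted p under 0.05). All 9 intervals of the first comparison include 0, and 5 receptors lie left of 0 in the second.

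Cd96, whose product binds CD155, gave signals of 851 and 878 on the control arrays, 859, 966 and 805 on the pre-transformed arrays and 165, 101, 122 and 152 in tumours 1 to 4. Every tumour lay far below every sorted array, and the tumours lay close together. The log2 difference from pre-transformed cells was −2.72 ± 0.18 SE (limma, adjusted p = 7.56e-06), and 3.36% of all genes had a difference as low or lower. CD96 is also a receptor of natural killer cells. The 12 genes of that lineage summed to 617 and 677 in controls, 421 to 694 in pre-transformed cells and 180.5 to 280.1 in tumours, 11 of the 12 were dim in each group, and Ncr1, which defines the lineage, read 3.3 to 11 over the 9 arrays. Most of the sum in sorted cells was Gzma, a granzyme gene, with a mean of 462 in pre-transformed cells and 78.2 in tumours. Of the 6 of these genes tested, Gzma was called lower and Gzmb higher, the latter dim in both groups. The median of the 6 was 1.70 on the log2 scale, beside −0.12 over all genes. Prf1 had a lower mean in tumours, while Klrd1, Klrk1 and Nkg7 had higher ones, and none of these passed. Klrd1 read 24, 0.7, 25 and 39.4 in tumours 1 to 4 and 0.7 to 4.9 in sorted cells. Klrk1 read 19.4, 1.4, 5.9 and 25.6, against 0.6 to 4.3. The part of natural killer cells in the Cd96 signal was not tested.

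Cd6, a scavenger receptor that binds ALCAM, gave 1082 and 1051 in controls, 992, 880 and 942 in pre-transformed cells and 259, 160, 368 and 168 in tumours 1 to 4. The groups did not overlap. The log2 difference was −2.06 ± 0.26 SE (adjusted p = 0.000159). Cd5, the next gene to Cd6 on chromosome 19 in the GRCm38.p6 annotation, gave 1206 and 1106 in controls, 1145, 1313 and 1029 in pre-transformed cells and 405, 328, 760 and 468 in tumours 1 to 4. It fell 2.48-fold (log2 difference −1.31 ± 0.25 SE, adjusted p = 0.00153). Tumour 3 had the highest Cd5 and Cd6 of the tumours, and no tumour reached the lowest sorted array for either gene.

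Cd27, a receptor of the TNF receptor family, gave 1260 and 1121 in controls, 1089, 1290 and 1126 in pre-transformed cells and 370, 586, 737 and 526 in tumours 1 to 4. It fell 2.16-fold (log2 difference −1.11 ± 0.21 SE, adjusted p = 0.00143), with no overlap. Cd28 gave 1483 and 1287 in controls, 1443, 1706 and 1685 in pre-transformed cells and 858, 1363, 492 and 562 in tumours 1 to 4. Tumour 2 lay between the control arrays, and the other tumours lay below every sorted array. The log2 difference from pre-transformed cells was −1.09 ± 0.30 SE (2.13-fold, adjusted p = 0.0114), and −1.38 without tumour 2 (adjusted p = 0.00039). The second Cd28 probe set moved in the same way, from 900 to 1045 in pre-transformed cells to 437, 816, 273 and 245 in tumours 1 to 4 (log2 difference −1.33 ± 0.36 SE, adjusted p = 0.0116 over 26421 probe sets).

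Cd2, Ctla4 and Btla had the widest spread among tumours. Cd2, the receptor of CD48, gave 692 and 536 in controls, 497, 793 and 471 in pre-transformed cells and 1119, 200.3, 922 and 761 in tumours 1 to 4. Tumour 2 was under every sorted array, while tumours 1 and 3 were above them all. The mean of all 4 tumours (630, SD 1.12 on the log2 scale) stood beside 570 in the 3 pre-transformed mice (SD 0.41). The log2 difference was 0.14 (95% interval −0.99 to 1.27, adjusted p = 0.827).

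Ctla4, the inhibitory counterpart of Cd28 and the next gene to it on chromosome 1, gave 37.5 and 17.9 in controls, 39.5, 40.8 and 31.3 in pre-transformed cells and 324, 29.7, 119 and 55.4 in tumours 1 to 4. Tumours 1, 3 and 4 were above every sorted array, and tumour 2 was under every pre-transformed array. The log2 difference was 1.27 ± 0.68 SE (adjusted p = 0.137). Btla, which binds the TNF receptor family protein HVEM, gave 21.2 and 22.2 in controls, 20.6, 25 and 18.5 in pre-transformed cells and 158, 2.6, 106 and 186 in tumours 1 to 4. Tumour 2 stood alone, under all other arrays, and the other 3 tumours were above all sorted arrays. The log2 difference was 1.33 ± 1.25 SE (adjusted p = 0.385).

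Without tumour 2, limma called 8 of the 9 receptors against pre-transformed cells, 5 lower and 3 higher, where 31.3% of all genes were called lower and 25.0% higher in that fit. The 3 were Btla (log2 difference 2.78, adjusted p = 4.71e-05), Ctla4 (1.80, adjusted p = 0.0203) and Cd2 (0.69, adjusted p = 0.0273). Tumour 2 was the lowest tumour for these same 3 genes, so leaving it out raises them by construction. The calls describe the weight of that array and are no separate support for a rise. No other array left out gave any of the 3 calls, and Cd2 was −0.133 without tumour 1 and −0.040 without tumour 3. Of the tumours, tumour 2 had the lowest summed myeloid (209), B cell (277), natural killer (180.5) and stroma and endothelium markers (492). Its erythroid sum was the highest (973), and its regulatory and mature T cell sum (633) was above that of tumour 4 (569). The 65th percentile of tumour 2 was the lowest of the tumours as well, 28.6 against 35.7 to 40.5. How many of all genes were lowest in tumour 2 was not counted. Ms4a1, which encodes the B cell protein CD20, read 198, 5, 139 and 270 in tumours 1 to 4, and Cd79a, part of the B cell receptor, read 95.6, 0.5, 87.2 and 67.9. Cd79b, its partner chain, read 80.7, 1.3, 73.6 and 108.5, but 196 to 254 in sorted cells, above every tumour. Lyz2, a lysozyme gene of myeloid cells, read 1659, 3.1, 1376 and 1741, and Csf1r, a macrophage receptor gene, read 412, 8.4, 301 and 475. Among the myeloid markers the integrin gene Itgam went the other way, at 31.4, 113.2, 57.7 and 23.4 in tumours 1 to 4 and 4.4 to 53.4 in sorted cells. B cells are known to carry BTLA and, in mice, CD2. The part of these cells in the signals of Btla, Ctla4 and Cd2 was not tested. Foxp3 and Il2ra, which mark regulatory T cells, a known source of CTLA-4, read 2 to 13.5 and 4 to 7.4 in tumours, against 4.4 to 9.3 and 18.3 to 37.3 in sorted cells. The 13 genes of regulatory and mature T cells summed to 569 to 1145 in tumours, 1077 to 1324 in controls and 954 to 1120 in pre-transformed cells. Of the 9 tested, 2 were called higher and 3 lower in tumours against pre-transformed cells, beside 23.9% and 31.0% of all genes. Il2ra was among the lower. The higher were Il7r (612.1, 31.5, 140.4 and 41 in tumours 1 to 4, 3.9 to 11 in sorted cells) and Runx3 (62.8 to 276.2 against 24.5 to 32.2).

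**Figure D3:**
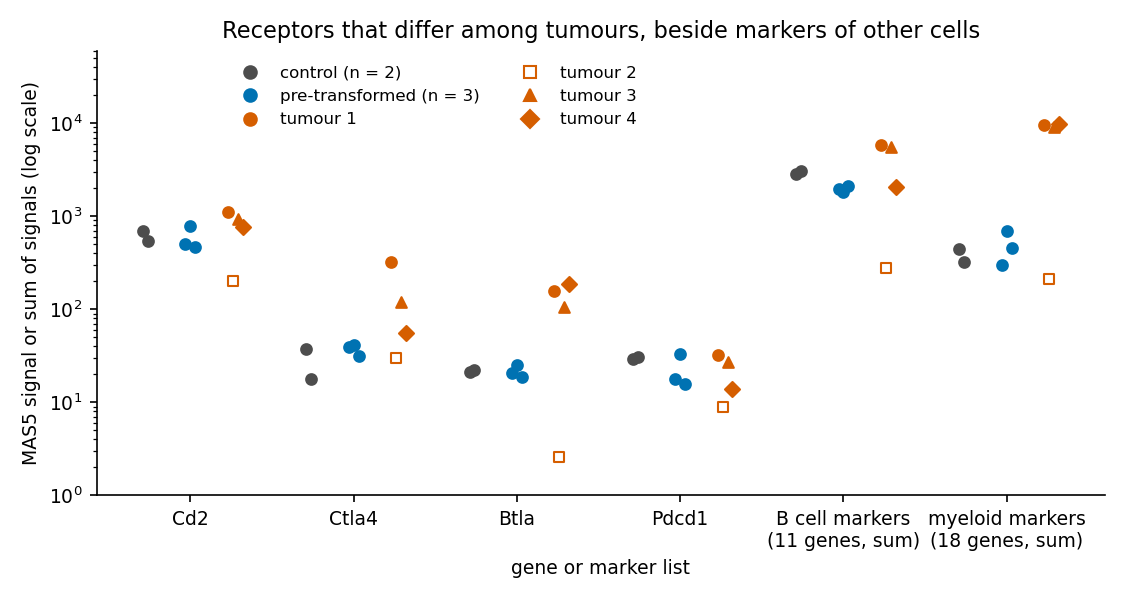
Signals (log scale) of Cd2, Ctla4, Btla and Pdcd1 and summed signals of 11 B cell and 18 myeloid marker genes on each array, with tumour 2 as an open square. Tumour 2 is the lowest tumour in all 6 columns, at 2.6 for Btla and 209 for the myeloid sum.

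Pdcd1, which encodes PD-1, gave 28.9 and 30.5 in controls, 17.8, 33.4 and 15.6 in pre-transformed cells and 32.3, 8.9, 26.8 and 13.8 in tumours 1 to 4. All groups were dim and overlapped, so that no fold is given (limma on the tumour comparison, adjusted p = 0.726).

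Against controls, which share the tumour arrays with the comparison above, 4 of 9 receptors were lower, where 45.7% of all genes were called, 25.2% lower and 20.5% higher. These 4 did not overlap with controls, where 60.5% of all genes did not overlap and 33.1% were lower in that way. Cd96 had a log2 difference of −2.70, Cd6 of −2.24, Cd5 of −1.31 and Cd27 of −1.14. Cd28 missed the threshold at −0.87 ± 0.34 SE (adjusted p = 0.0588). It passed in 5 of 23 alternatives: without tumour 2 (−1.16, adjusted p = 0.00268), with quantile normalization, with median centring, with the mean of its probe sets and with array weights (−0.95 to −1.26, adjusted p 0.00509 to 0.049). Without tumour 2 a total of 7 receptors passed, with Btla and Ctla4 higher and 5 lower, where 26.6% of all genes were called lower and 22.3% higher in that fit. Tumour 2 was the lowest tumour for Btla and Ctla4 and the highest for Cd28, so the calls these genes gained there are no separate support.

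The ligands of these receptors were read on the same arrays. Of 27 listed ligand genes 15 were tested, of which 6 fell and 5 rose in tumours against pre-transformed cells (median −0.89 on the log2 scale). Beside this count and those of the lists that follow stand the same 31.0% of all genes called lower, 23.9% called higher and the median of −0.12. Pvr, whose product CD155 is the ligand of CD96, fell with its receptor gene: it gave 569 and 599 in controls, 905, 862 and 969 in pre-transformed cells and 122, 171, 220.3 and 271 in tumours 1 to 4. It fell 4.85-fold from pre-transformed cells (log2 difference −2.28 ± 0.24 SE, adjusted p = 5.56e-05). Before transformation Pvr had been called higher, 1.56-fold (adjusted p = 0.0273), a call lost in 11 of 19 alternatives (adjusted p up to 1.00), among them without either control array. In that comparison 1 of 15 ligand genes passed, where 1.11% of all genes were called higher.

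Other ligands of the 9 receptors moved both ways; they were named for their role after their values were seen. Cd48, the ligand of CD2, read 415 to 530 in pre-transformed cells and 259, 125, 265 and 267 in tumours 1 to 4, 2.19-fold lower (adjusted p = 0.00521). Of the PD-1 ligands, Cd274 fell from a mean of 73.8 to 39.8 (log2 difference −0.89 ± 0.31 SE, adjusted p = 0.0331), a call lost without any 1 of the 3 pre-transformed arrays (adjusted p up to 0.113). Its control mean was 42.1, and tumours differed from controls by −0.08 on the log2 scale (limma, adjusted p = 0.866). Pre-transformed arrays were all above the controls, by 0.81 on the log2 scale, but did not pass (adjusted p = 0.104). Pdcd1lg2 rose from 9 to 14.9 in pre-transformed cells to 45.5 to 83.2 in tumours, at least 1.32-fold when the dim group is set to its 65th percentile (adjusted p = 0.000243), tumour 2 included; with a common floor for dim signals the adjusted p was 0.064. Cd86, a B7 ligand of CD28 and CTLA-4, was dim in both groups (0.5 to 3.8 and 8.3 to 18.1), and its call (adjusted p = 0.0455) was lost in 11 of 22 alternatives. Tnfrsf14, which encodes the BTLA partner HVEM, did not pass (adjusted p = 0.352), and no probe set of Cd70, Cd80 or Alcam passed the filter on low signals.

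**Figure D4:**
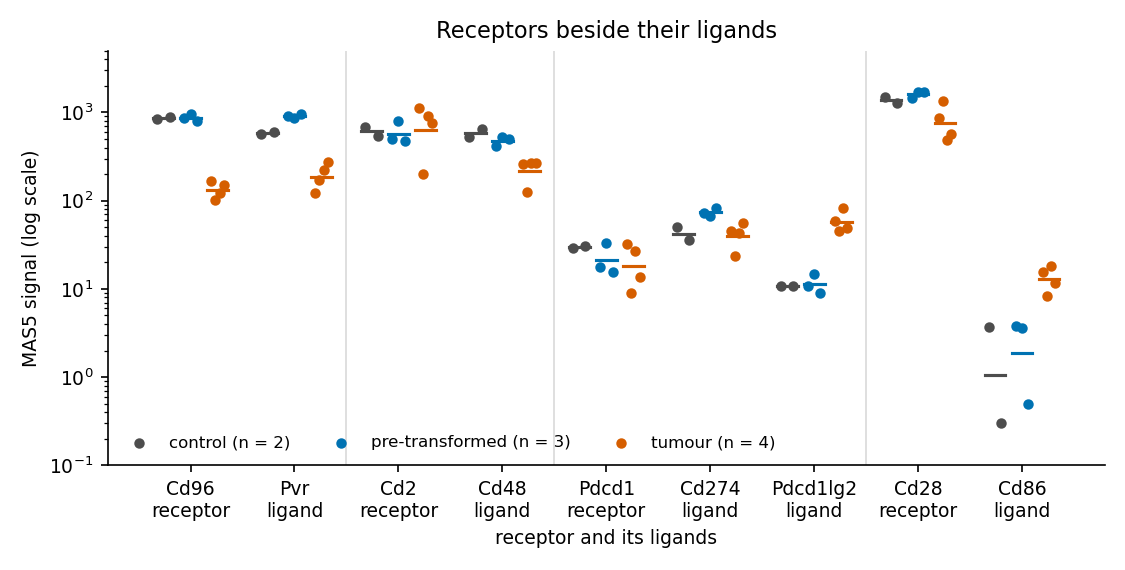
Signals (log scale) of 4 receptors and of 5 ligand genes on each array, with a bar at each group's geometric mean; vertical lines separate receptors with their ligands. Cd96 and Pvr are both lower in all 4 tumours than in any sorted array, while Pdcd1lg2 is higher.

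Ligand genes outside the partners of the 9 receptors also passed the test. Ltb, which encodes lymphotoxin β, fell 12.0-fold, from 1228 to 1909 in pre-transformed cells to 137, 16.9, 356 and 292.5 in tumours 1 to 4 (adjusted p = 0.00546). Without tumour 2 the fall was 6.18-fold (adjusted p = 0.000139). Tnfsf14 fell and Icosl rose with both groups dim (adjusted p = 0.00251 and 0.0165). Icosl read 29.8, 3.9, 42.9 and 27.4 in tumours 1 to 4, with tumour 2 inside the pre-transformed range of 1.3 to 5.7. Lgals9, which encodes galectin-9 and was named after its values were seen, rose 2.38-fold to 1562 or more in each tumour (adjusted p = 0.00143).

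Other stimulatory and adhesion receptors were lower in 12 of 25 tested genes and higher in 3 in tumours against pre-transformed cells, with a median of −0.65. Itgal, which encodes the LFA-1 α chain, fell 7.67-fold from 3197 to 417 (adjusted p = 5.72e-05), and Slamf1, a SLAM family receptor, 6.13-fold from 967 to 158 (adjusted p = 3.25e-05). Tnfrsf18, which encodes GITR, fell 5.22-fold from 218 to 41.6 (adjusted p = 0.000116), and Tnfrsf25 fell with both groups dim (adjusted p = 0.0209). Icos, which lies beside Ctla4 and Cd28 on chromosome 1, gave 124, 86.7 and 124.5 in pre-transformed cells and 22.4, 47.2, 65.1 and 63.3 in tumours 1 to 4 (log2 difference −1.27 ± 0.36 SE, adjusted p = 0.0128). The call was lost without pre-transformed array 1 or 3 (adjusted p up to 0.0512). Icos was lower in every tumour than in any sorted array, tumour 1 included, where Ctla4 was at its highest. Slamf6, named like Icos after its values were seen, rose 1.59-fold (adjusted p = 0.0106). This call was lost in 3 of 23 alternatives: with the mean of its probe sets, with median centring and without pre-transformed array 1 (adjusted p up to 0.882). The smallest log2 difference of Slamf6 over the alternatives was 0.054. Before transformation 1 of the 25 passed, Cd44, with a log2 difference of 3.17 (adjusted p = 0.0015), a call lost with a common floor for dim signals and with no trend (adjusted p up to 0.101).

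Other inhibitory receptors and adaptors were lower in 7 of 15 tested genes and higher in 3 (Cd160, Cd22 and Cd72), with a median of −0.86. Cd22, also among the B cell markers above, read 80.8, 7.9, 84.3 and 157.7 in tumours 1 to 4. Cd22 and Cd72 both overlapped with pre-transformed cells. Vsir, which encodes the checkpoint protein VISTA, fell at least 8.45-fold from 307 (adjusted p = 0.000563), and Lax1, a membrane adaptor gene, at least 1.76-fold (adjusted p = 0.00131). Lag3, a coinhibitory receptor gene, fell with both groups dim (27.1 to 3.26, adjusted p = 0.00111). Cd160, whose product like BTLA binds HVEM, rose from 9.4 to 13.7 in pre-transformed cells to 76.3, 66.8, 80.7 and 30.4 in tumours 1 to 4, at least 1.36-fold (adjusted p = 0.000548; 0.0547 with a common floor). In tumour 2, where Btla was at its lowest, Cd160 stood near its values in tumours 1 and 3. Before transformation limma called 0 of these 15, where 1.63% of all genes were called.

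Genes for proteins that carry the receptors' signals inside the cell were read as mRNA. Of 36 tested 21 fell and 2 rose in tumours against pre-transformed cells (median −0.76), where 31.0% of all genes fell and 23.9% rose. Before transformation 0 of the 36 passed, where 1.63% of all genes were called. Pstpip1, an adaptor gene of CD2, fell 8.29-fold from 725 to 87.5 (adjusted p = 0.00038). Prkcq, the kinase gene downstream of CD28, fell 5.81-fold from 1390 to 239 (adjusted p = 9.82e-05). Pik3cd, a PI3K catalytic subunit gene, fell on its brightest probe set (log2 difference −2.75), but its probe sets disagreed and their mean was 0.66 higher. Pik3r1, a PI3K regulatory subunit gene, fell 2.06-fold (adjusted p = 5.77e-05), but the mean of its probe sets differed by −0.09 on the log2 scale (adjusted p = 0.59).

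The partners of CD27 moved in opposite directions. Traf2, which links TNF receptors to downstream kinases, fell 3.08-fold from 315 to 102 (adjusted p = 5.32e-05). Siva1, whose product binds the tail of CD27, gave 249 and 328 in controls, 130, 159 and 194 in pre-transformed cells and 747, 582, 629 and 591 in tumours 1 to 4, a rise of 4.00-fold over pre-transformed cells (adjusted p = 2.78e-05). Traf5 was dim in both groups (adjusted p = 0.679). Of the phosphatase genes, Ptpn6 read 475 and 383 (log2 difference −0.31 ± 0.21 SE, adjusted p = 0.224). Against controls, with a mean of 663, limma called it lower in tumours, 1.73-fold (adjusted p = 0.0206). Its difference before transformation was −0.48 on the log2 scale and did not pass (adjusted p = 0.0672). Ptpn11 read 501 and 397 (adjusted p = 0.0481), a call lost in 14 of 23 alternatives. Cblb, a ubiquitin ligase gene of CD28 signalling, had a log2 difference of 0.09 (adjusted p = 0.819).

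Genes that antigen receptor signals induce, among which CD5 is often counted, were lower in 10 of 15 tested and higher in 0, where 31.0% of all genes were called lower and 23.9% higher, with a median of −1.19. Egr1 fell 13.2-fold, from 1343 to 102 (adjusted p = 0.000451), Nfatc1 5.70-fold from 224 to 39.3 (adjusted p = 0.00114) and Nab2 at least 2.97-fold (adjusted p = 0.0113). The log2 difference of Nab2 was −3.29, and it was −2.65 without tumour 1 and −4.09 without tumour 3. Nr4a3 fell with both groups dim. Before transformation 0 of the 15 passed, where 1.63% of all genes were called, and their median was 0.01, beside 0.02 over all genes. Cd69 is also in the list of stimulatory receptors. The β-actin 3′ to 5′ ratio given above differed between the same groups, the Gapdh ratio did not pass its test, and their part in these differences was not tested.

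**Figure D5:**
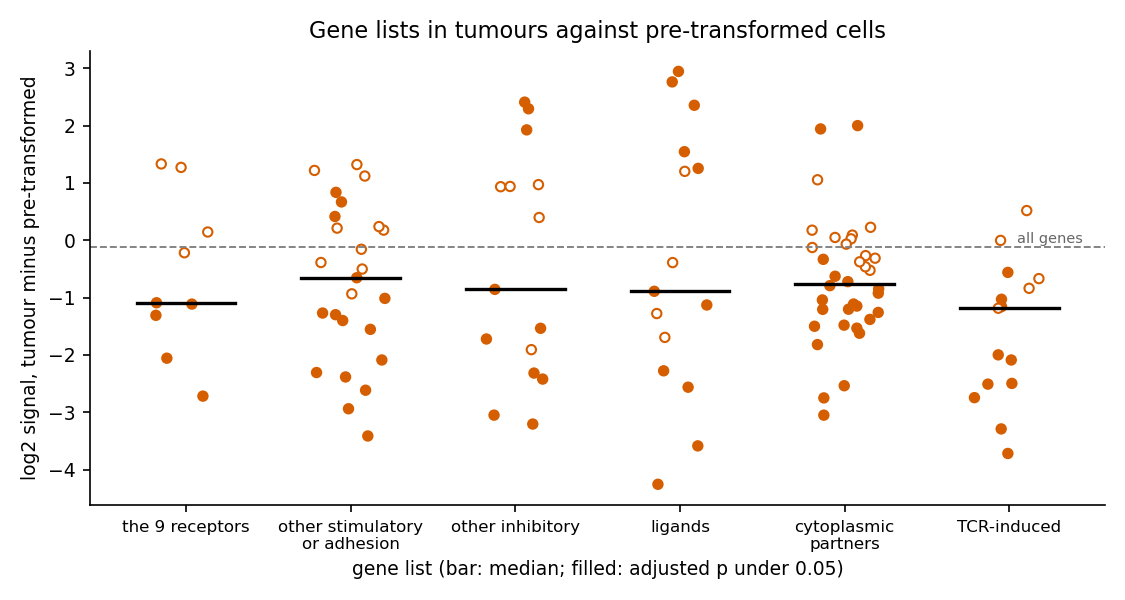
Difference in log2 signal of tumour minus pre-transformed cells for each tested gene of the 9 receptors and of 5 lists, with a bar at each median and a dashed line at the median of all genes (−0.12). Filled points have an adjusted p under 0.05; the medians of all 6 groups lie below the line.

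Genes with the pattern most like each receptor were sought over the 9 arrays, by the smallest distance between log2 signals centred on each gene's mean. Points share arrays and their labelling, so Pearson's r is a description. Nearest to Cd96 was Ypel5 (distance 0.48, r = 0.995), to Cd5 the actin regulator gene Vasp (0.28, r = 0.997), to Cd6 the GTPase gene Gimap1 (0.41, r = 0.992), to Cd27 Rapgef3 (0.31, r = 0.989) and to Cd28 Adck1 (0.49, r = 0.966). Ctla4 lay nearest to Nfil3 (1.30, r = 0.931) and then to the secreted inhibitor gene Slpi. Btla lay nearest to Izumo1r (0.93, r = 0.986) and then to H2-Ab1 (1.17, r = 0.977), an MHC class II gene. The nearest genes to Cd2 and Pdcd1 were BC035044 (0.69, r = 0.955) and Spsb2 (0.56, r = 0.958).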

How the data were processed

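The values deposited by the authors are linear MAS5 intensity, 1 value for each probe set and array. MAS5 stands in the submitters' processing notes, with no version in the sources used here. Each array's mean was 100 once the lowest and highest 2% of probe sets were set aside. For analysis, 0 was replaced by 0.1 and log2 was taken. A probe set was kept if 2 or more arrays reached their own median there (26421 of 45037, controls left out), and each gene was represented by its brightest kept probe set (11644 genes). Of the probe sets, 34945 named 1 gene, 932 several and 9160 none.

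limma 3.58.1 in R 4.3.3 was used (lmFit, eBayes with a trend), on sorted arrays alone for the first comparison and on all 9 for both tumour comparisons, with Benjamini-Hochberg adjustment over all genes tested. The fit was tested on simulated data in which all groups had the same spread for each gene and few genes changed. Tumours varied more than sorted cells and many genes changed, so that test does not show how the fit behaves in the tumour comparisons. Means are geometric, and a change from a dim group is a bound. Members and lists were chosen with earlier results of these data known. Genes named beside the 9 were the largest called changes of each list, fixed partners, defining markers and those said to be named afterwards. Figures were drawn with matplotlib 3.10.9. Alternatives are given in the closing section.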

Additional observations from a re-analysis of the deposited data

Results flagged for a closer look

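Btla in the tumours was marked by a test for a single distant sample. The gap between tumour 2 (2.6) and the next tumour (106) made up 0.868 of the range over the 4 tumours on the log2 scale. Of 10 receptor probe sets looked at this was the one past the limit, and chance alone marks about 1 in 20 groups. Summed B cell and myeloid markers were also lowest in tumour 2, at 277 and 209. So were those of natural killer cells (180.5), of stroma and endothelium (492.3) and of DP cells (18594) among the tumours. The erythroid sum was highest in tumour 2 (972.6), and its sum for regulatory and mature T cells (632.6) lay above that of tumour 4 (568.8). The other groups have too few arrays for this test.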

How the results depend on the processing

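Over 14 other settings and each array left out, the calls of Cd96, Cd6, Cd5, Cd27 and Cd28 against pre-transformed cells were kept, and limma called none of the 9 before transformation. With arrays left out, the called receptors ran from 5 to 8 against pre-transformed cells and from 4 to 7 against controls, the higher counts both without tumour 2. The count of genes called before transformation was 14 with a common floor, 74 with no filter, 1 with no trend, 431 with array weights, 6 with all 9 arrays in the fit and 18 to 291 with arrays left out. Testing every probe set gave 13168 and 10555 calls in the tumour comparisons, and calls against controls ran from 2589 to 5703 with arrays left out. Differences near 0 changed sign; the cause was not tested. With median centring, which moved the median of all genes from −0.12 to −0.38 against pre-transformed cells, Cd2 was −0.113 (−0.339 against controls), Traf5 −0.081 and Cblb −0.167, and before transformation Cd5 was −0.130 and Cd96 −0.116. Array weights gave −0.051 and −0.023 for the latter pair, and quantile normalization 0.035 for Cd27. The mean of probe sets gave 0.664 for Pik3cd. Replicate numbers name different mice and did not deviate together (correlations −0.024 to 0.085); with replicate number as a block 148 genes were called before transformation, and Cd2 was 0.043 and Btla 0.065 there, and Cd2 −0.133 in tumours against controls. With arrays left out, before transformation Cd5 ran from −0.089 to 0.086, Cd2 from −0.332 to 0.091, Cd27 from −0.113 to 0.056, Cd96 from −0.056 to 0.076, Btla from −0.152 to 0.065 and Ctla4 from −0.021 to 1.046. Against pre-transformed cells Cd2 ran from −0.133 to 0.694, Pdcd1 from −0.498 to 0.122 and Cblb from −0.065 to 0.370, and Cd2 from −0.227 to 0.600 against controls. With a common floor for dim signals the tumour calls of Tnfrsf25, Lag3, Tnfsf14, Icosl and Nr4a3 were lost. Those of Tnfrsf25 and Icosl were also lost without some single pre-transformed arrays (1 and 3 for Tnfrsf25, 2 and 3 for Icosl). The stricter filter left no value for Pdcd1. Dim signals limit what can be said of Pdcd1, Ctla4 and Btla.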
